A study of Mus musculus with 2 samples.

Results

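Erythroid cells were taken from single-cell RNA-seq libraries of the mouse eye cup at e15.5. The cells were chosen by their globin content. A cell was counted as erythroid when at least 50% of its unique molecular identifiers (UMIs, each standing for 1 captured transcript) came from 7 globin genes, Hba-a1, Hba-a2, Hba-x, Hbb-bs, Hbb-bt, Hbb-y and Hbb-bh1, and when it held at least 100 genes and 2000 UMIs. The rule found 631 cells in the control library and 554 in the mutant library, 1185 of the 21475 cells with that many genes and UMIs and of 26897 barcodes in all. Both libraries came from embryos whose Myrf alleles were flanked by loxP sites. The control genotype was Myrf fl/fl, with no Cre named in its label. The mutant genotype, Rx>cre Myrf fl/fl, added a Cre transgene under the control of Rx, which acts in the early eye field and is not an erythroid gene. For each library the cornea, lens and optic nerve were cut away, 3 eye cups were pooled and dissociated with papain, and the cells were captured with the 10x 3′ method. There was 1 library per genotype, so no difference between genotypes could be tested, and all intervals below are exact 95% intervals that cover counting error only.

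Red blood cells of the mouse embryo arise in waves. Primitive erythroid cells come from the yolk sac, enter the blood with their nuclei and carry embryonic globins, among them Hbb-y, Hbb-bh1 and Hba-x. Definitive cells come from the fetal liver, carry the adult chains Hba-a1, Hba-a2, Hbb-bs and Hbb-bt, and reach the blood after their nucleus has been expelled. As they mature, both kinds fill with haemoglobin, make haem in the mitochondria and cytosol, build the spectrin skeleton under the membrane, and lose most of their other RNA, protein and organelles.

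Myrf, the targeted gene, had 1 UMI in the control erythroid cells and 2 in the mutant ones. In the other cells it had 456 UMIs in 270 cells of the control library and 159 UMIs in 128 cells of the mutant library, or 3.82 and 1.28 per 1000000 UMIs outside the 7 globin genes. A 3′ tag need not lie in the deleted part of the gene, so these counts do not show where Cre had acted.

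The erythroid cells were rich in UMIs and poor in genes. Their median was 15766 UMIs in the control library and 15686 in the mutant library, against 11163 and 10085 in the other cells. The median erythroid cell held 299 genes in control and 314 in mutant, against 3454 and 3255 in the other cells. The globin share had a median of 93.9% in the control and 94.1% in the mutant, so the UMIs left for all other genes had medians of 855 and 852 per cell. When each erythroid cell was thinned at random to 200 UMIs outside the globins, the median was 110 genes (control) and 116 genes (mutant), against 172 in each library for other cells with under 1% globin UMIs. Fewer genes per UMI were therefore seen also at equal depth. Mitochondrially encoded genes held 5.62% and 5.18% of the UMIs outside the globins.

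**Figure D1:**
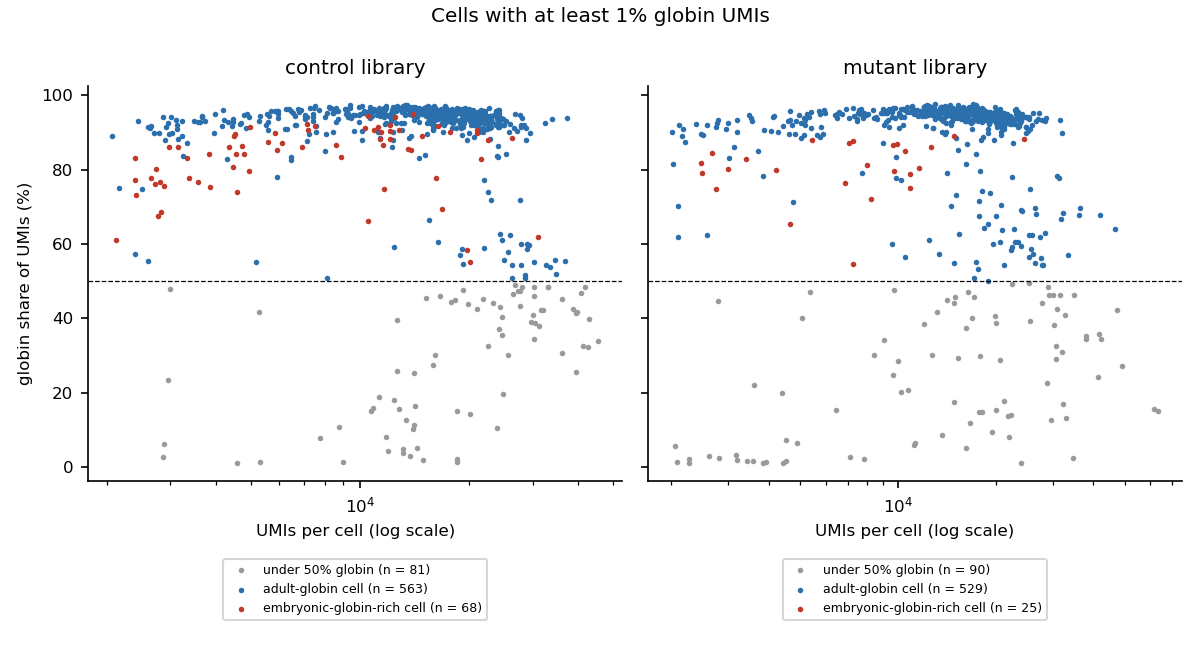
UMIs per cell (log scale) against the share of UMIs from the 7 globin genes (%), for each cell with at least 1% globin UMIs, in the control library (left) and the mutant library (right). The dashed line is the 50% limit. Red points are embryonic-globin-rich cells (68 control, 25 mutant), blue points are adult-globin cells (563 and 529), and grey points are cells under the limit (81 and 90).

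The limit of 50% fell in a thinly filled range, as the plot of globin share against UMIs shows. The 3 control cells just inside it had globin shares of 50.8%, 50.9% and 50.9%, and the 3 just outside had 49.1%, 48.5% and 48.5%. In the mutant library the cells just inside had 50.2%, 50.8% and 53.2%, and those just outside 49.6%, 49.1% and 48.5%. In the cells with under 1% globin UMIs, globins made up 0.0292% of all UMIs in the control library and 0.0275% in the mutant library. The libraries shared 69 barcode sequences, none of which was erythroid in both, and 5 of the control erythroid cells had a barcode that was also in the mutant list.

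Some erythroid barcodes also held RNA of other cell types. A total of 57 control cells (9.03%) and 85 mutant cells (15.3%) carried 5 or more UMIs of marker genes of other types. The markers were those of macrophages, endothelium, retina, mesenchyme, pigment epithelium and melanocytes, lens and surface epithelium. Platelet, neutrophil and mast cell markers were not among them. These barcodes had a median of 2413 and 2130 genes and a globin share of 62.4% and 68.8%, and they held 42.8% of the control and 52.3% of the mutant UMIs outside the globins. The doublet caller Scrublet called 5 of these 57 control and 11 of these 85 mutant barcodes, and no other erythroid ones. It was run only above a minimum of genes higher than that of the rule, so the erythroid cells with fewest genes could not be called. Values are therefore also given for the 574 control and 469 mutant erythroid cells without other-type markers, whose median was 280 and 285 genes.

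Blood cells other than erythroid ones left few counts. Over all erythroid barcodes the 5 platelet and megakaryocyte markers summed to 13 control and 4 mutant UMIs, with Ppbp, Gp9 and Gp1bb at 0. The 7 macrophage markers summed to 42 and 17 UMIs, with Ptprc at 0, and the 6 neutrophil and mast cell markers to 3 and 1, with Mpo, Cpa3 and Mcpt8 at 0. Retinal progenitor markers summed to 1327 and 968 UMIs, retinal neuron markers to 622 and 776, and mesenchyme markers to 1052 and 1246. In the cells without other-type markers these sums were 89 and 97, 116 and 113, and 253 and 288 UMIs. The part of this RNA in the comparisons below was not tested, and counts of genes are in most cases given with and without those cells.

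Erythroid cells made up 6.13% (5.68 to 6.62) of the control cells and 4.95% (4.56 to 5.37) of the mutant cells. The ratio of mutant to control share was 0.807 (0.719 to 0.906). With 1 pool of 3 eye cups per genotype, the amount of blood left in the tissue and the genotype cannot be told apart.

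The 10 genes with the most UMIs outside the 7 globins are given next. By UMIs, which are 3′ counts and not a level per length, Ftl1, a ferritin chain, led with 35597 control and 25334 mutant UMIs. Fth1, the other ferritin chain, had 29705 and 18226 UMIs. Ubb, which encodes ubiquitin, had 16987 and 13647, Tpt1 had 15056 and 11784, and Gpx1, a glutathione peroxidase, had 11777 and 12499. Prdx2, a peroxiredoxin abundant in red cells, had 10488 and 8958 UMIs, and H3f3a, a histone gene, had 10198 and 9227. Gm42418, which overlaps ribosomal RNA repeats, had 30085 and 21978 UMIs, and the mitochondrial genes mt-Atp6 and mt-Co3 had 12573 and 11618, and 10469 and 9609.

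The label of the cells was checked with genes that had not chosen them. Slc4a1, which encodes the band 3 anion exchanger of the red cell membrane, had 631 UMIs in the control erythroid cells and 75 in all other control cells. In the mutant library it had 688 and 82 UMIs. Per 1000000 UMIs outside the globins, it was 1068-fold (840 to 1376) higher in the control erythroid cells and 1115-fold (886 to 1420) higher in the mutant ones. Alas2, which catalyses the first step of haem synthesis in red cells, had 5589 erythroid UMIs against 527 in the other control cells, and 5597 against 337 in the mutant. It was 1346-fold (1231 to 1475) and 2208-fold (1977 to 2472) higher. An Alas2 UMI was seen in 521 of 631 control erythroid cells and in 21 of 9575 control cells with under 1% globin UMIs, and in 488 of 554 against 23 of 10544 in the mutant library.

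Of 15002 genes with 50 or more UMIs in each library, 343 (2.29%) were over 2-fold higher in erythroid than in other cells in both libraries with an interval that left out 1, and 1737 (11.6%) were over 2-fold lower. These folds describe the cells and are not a test, since the globin share that chose the cells goes with the rest of their RNA. For the cells without other-type markers, set against other cells with under 1% globin UMIs, 407 of 14975 genes (2.72%) were higher and 5998 (40.1%) were lower. The 15 genes furthest above the other cells included Tspo2, Hsd3b6, Alas2, Trim10, Gm32051, Slc4a1, Hbq1b, Hbq1a, Gm867, Grap2, Fam46c, Isg20 and Nxpe2. Tspo2, a relative of the mitochondrial translocator protein that is made in late red cells, had 879 and 750 erythroid UMIs and was 1957-fold and 1881-fold higher. Hbq1a and Hbq1b, theta-globin genes that were no part of the rule, had 128 and 139 UMIs and 67 and 57 UMIs, and as close copies of each other they could share reads.

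Haem synthesis genes were higher in the erythroid cells. All 9 of the list could be compared, and 7 were over 2-fold higher in both libraries, among them Alas2, Alad, Urod, Cpox, Ppox and Fech. Fech, which inserts iron into the ring at the last step, was 122-fold (114 to 131) higher in the control and 132-fold (123 to 141) higher in the mutant. Urod was 12.0-fold and 12.5-fold higher, Alad 4.42-fold and 6.13-fold, and Cpox 4.09-fold and 11.4-fold. Alas1, the form of the first enzyme used outside red cells, was over 2-fold lower in both libraries. Without other-type markers 7 genes were again higher and 1 lower, and Fech was 213-fold and 239-fold higher.

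Iron handling, the membrane and organelle clearance followed. Of 19 iron and haem handling genes, 7 were over 2-fold higher, and the largest fold of those given here was that of Slc25a37 (mitoferrin, which carries iron into mitochondria) at 192-fold and 193-fold. Ncoa4, the receptor that sends ferritin to be degraded, was 40.7-fold and 39.5-fold higher. Of 21 membrane and skeleton genes, 15 were higher, among them the spectrin gene Sptb, Ank1, Epb41, Epb42, Tmod1 and Slc4a1, and 1, the water channel Aqp1, was lower. Of 14 clearance genes, 11 were higher, among them the ubiquitin enzymes Ube2o, Ube2h and Ube2l6, the mitophagy receptor Bnip3l and the ubiquitin ligase Trim10. Of 9 globin chaperone and antioxidant genes, Cat, Blvrb, Prdx2 and Gpx1 were higher. In glycolysis and gas transport, 2 of 19 genes were higher, Bpgm, which makes 2,3-bisphosphoglycerate, at 198-fold and 181-fold, and Car2, a carbonic anhydrase, at 181-fold and 129-fold. Without other-type markers, 8 of 19 iron genes were higher and 2 lower, and 14 of 20 membrane genes higher and 1 lower. Of the clearance genes 11 of 14 were higher and 1 lower, and of the globin chaperone and antioxidant genes 5 of 9 were higher and 1 lower. In glycolysis and gas transport 2 of 19 were then higher and 10 lower, among the lower ones Ldha, Pgk1 and Eno1, against 1 lower over all barcodes. The share of all genes that were lower was 40.1% here and 11.6% over all barcodes.

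Regulatory genes of the lineage were seen with few counts. Of 17 erythroid transcription factors, 7 were higher (Lmo2, Tal1, E2f2, Foxo3, Lyl1, Klf1 and Zfpm1) and 2 were lower (Spi1 and Runx1, factors of other blood lineages and of stem cells). Of all genes, 2.29% were higher and 11.6% lower in this comparison, and 2 lower of 17 is close to that share. Klf1, an activator of adult beta-globin, had 25 control and 39 mutant UMIs and was 34.1-fold and 59.6-fold higher. Gata1, the main red cell GATA factor, had 11 and 19 UMIs, against 6 and 14 in all other cells. Of 14 genes linked to globin switching, Sox6 was higher at 4.98-fold and 11.7-fold and 3 (Nr2c2, Hmga2 and Bcl11a) were lower. Bcl11a, a repressor of embryonic globin, had 12 and 18 UMIs and was at 0.273 and 0.419 of its level in other cells. Without other-type markers, the same number of factors, 7, was higher and 2 others, Nfe2l2 and Ldb1, were lower. Of the 14 switching genes 8 were then lower and 1 higher, where 40.1% of all genes were lower.

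The cell-cycle lists changed with the cells taken. Over all erythroid barcodes, of 16 S-phase genes none was past 2-fold in both libraries in either direction, and of 16 G2 and mitosis genes 1 was higher, Ube2c, at 6.87-fold and 6.04-fold. Without other-type markers, 13 of 16 S-phase genes were over 2-fold lower than in the other cells, among them Pcna and Mcm2 to Mcm7, which act in DNA replication, and 7 of 16 G2 and mitosis genes were lower, among them Top2a, Ccnb1 and Aurkb. The G2 and mitosis share is close to the 40.1% of all genes that were lower here. Ube2c was then 9.65-fold and 10.3-fold higher. The S-phase median log2 ratio was −1.90 (control) and −1.72 (mutant), against −1.06 and −0.81 over all genes. The G2 and mitosis median was −1.70 and −0.93.

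**Figure D2:**
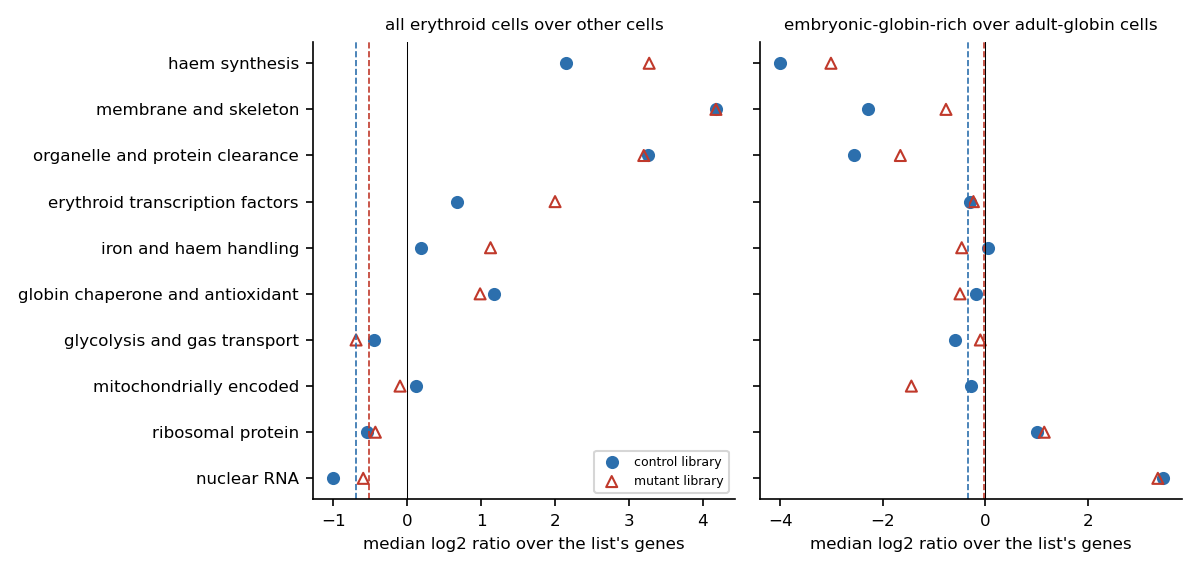
Median log2 ratio over the genes of each list, in the control library (blue circles) and the mutant library (red triangles), for all erythroid cells over other cells (left) and for embryonic-globin-rich over adult-globin cells without other-type markers (right). Dashed lines are the median over all genes compared in each library. Haem synthesis, membrane and clearance lists lie right of the dashed lines on the left and left of them on the right, and of the lists drawn, ribosomal protein and nuclear RNA lie furthest right in the right-hand panel.

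The erythroid cells fell into distinct kinds by their beta-like globins. In 68 control cells (10.8%, 8.47 to 13.5) and 25 mutant cells (4.51%, 2.94 to 6.59), the embryonic genes Hbb-y and Hbb-bh1 held over 50% of the beta-like globin UMIs, and these are called embryonic-globin-rich cells. The lowest such cell had 70.6% in the control and 72.2% in the mutant. The highest of the other cells had 2.52% and 0.682%, and no cell lay between 10% and 50%. The 563 control and 529 mutant cells below are called adult-globin cells. The ratio of mutant to control share was 0.419 (0.254 to 0.671).

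The alpha-like chains were less clearly split. Hba-x held a median of 25.6% of the alpha-like UMIs in the control embryonic-globin-rich cells, with a range of 6.12% to 88.6%, and a median of 25.1% in the mutant ones, with a range of 11.5% to 46.3%. Hbb-y made up 58.2% and 54.7% of all globin UMIs in embryonic-globin-rich cells and 0.00268% in control adult-globin cells, while Hbb-bs made up 51.0% and 50.04% in adult-globin cells. Hba-a1 and Hba-a2, and Hbb-bs and Hbb-bt, are nearly identical pairs, so the split of UMIs within each pair is uncertain.

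The promoters of 3 genes that set these kinds apart are shown from RefSeq (GRCm38.p6), each from 250 bases before to 50 bases after the start. Hbb-bs stands for the adult chains and Hbb-y for the embryonic ones, and Alas2 differs between the kinds as described next. Capitals mark the words AGATAA and TGATAA, read by GATA factors, CCNCNCCC, read by KLF factors, and CCAAT, on either strand. The windows are at chrX:150547167-150547466 (plus strand), chr7:103827879-103828178 (minus strand) and chr7:103853158-103853457 (minus strand).
Alas2: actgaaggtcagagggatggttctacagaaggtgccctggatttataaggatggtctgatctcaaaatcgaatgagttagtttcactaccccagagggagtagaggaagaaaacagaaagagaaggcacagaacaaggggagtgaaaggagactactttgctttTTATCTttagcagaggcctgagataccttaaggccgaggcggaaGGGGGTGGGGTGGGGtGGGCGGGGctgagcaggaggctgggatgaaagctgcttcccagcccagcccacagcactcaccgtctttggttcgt
Hbb-bs: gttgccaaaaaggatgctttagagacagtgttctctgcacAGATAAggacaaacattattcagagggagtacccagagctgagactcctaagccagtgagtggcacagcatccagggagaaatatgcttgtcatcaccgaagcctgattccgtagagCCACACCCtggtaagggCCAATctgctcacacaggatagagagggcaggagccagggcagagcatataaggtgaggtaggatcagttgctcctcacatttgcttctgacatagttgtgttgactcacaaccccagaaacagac
Hbb-y: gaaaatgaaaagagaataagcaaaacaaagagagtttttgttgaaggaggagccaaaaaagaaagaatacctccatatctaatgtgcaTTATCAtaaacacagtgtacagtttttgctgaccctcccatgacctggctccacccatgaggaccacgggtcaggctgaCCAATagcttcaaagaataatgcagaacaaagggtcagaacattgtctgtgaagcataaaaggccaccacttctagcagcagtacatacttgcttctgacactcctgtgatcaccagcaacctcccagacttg
The Alas2 window held AGATAA on the reverse strand and a run of CCNCNCCC on the reverse strand near the start. The Hbb-bs window held AGATAA, CCNCNCCC (the CACCC word of beta-globin) and CCAAT in that order, and the Hbb-y window held TGATAA on the reverse strand and CCAAT. Of 32851 RefSeq windows of this length, 11.2% held AGATAA, 9.05% held TGATAA, 49.5% held CCNCNCCC and 37.4% held CCAAT. A window was found for 7 of 9 haem synthesis genes, and 3 of these, Alas2, Uros and Cpox, held AGATAA or TGATAA, against 18.6% of all windows. A match of letters is a description and not a site of binding.

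Embryonic-globin-rich and adult-globin cells differed in depth and in many genes. Among cells without other-type markers, 62 control and 24 mutant embryonic-globin-rich cells were set against 512 and 445 adult-globin cells. The former had fewer UMIs, with medians of 6508 and 7667 against 15938 and 15522, and a lower globin share, with medians of 86.1% and 81.6% against 94.5% and 94.7%. Their UMIs outside the globins were not fewer, at 867 and 1397 against 809 and 734. Of 672 genes with 50 or more UMIs in each library, 76 (11.3%) were over 2-fold higher in both libraries in the embryonic-globin-rich cells and 174 (25.9%) were over 2-fold lower. Over all erythroid barcodes these were 61 (3.48%) and 144 (8.21%) of 1755. The cells were split by a measured value, so these folds are a description. The minimum of 50 UMIs was summed over both kinds of cell. Adult-globin cells without other-type markers held 465261 control and 409406 mutant UMIs outside the globins, against 73381 and 34895 in embryonic-globin-rich cells. Genes high in adult-globin cells therefore passed more readily, and the counts of higher and lower genes, also in the lists below, depend on this.

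The genes of haem synthesis were low in the embryonic-globin-rich cells. All 6 that could be compared were over 2-fold lower in both libraries, and 5 of 7 were over all erythroid barcodes. Of all genes, 25.9% and 8.21% were lower in these comparisons. Alas2 had 48 UMIs in the 62 control embryonic-globin-rich cells and 4917 in the 512 adult-globin cells, at 0.0619 (0.0456 to 0.0822) of the adult-globin level. In the mutant library it had 30 and 4596 UMIs, at 0.0766 (0.0516 to 0.109). The median adult-globin cell held 9 Alas2 UMIs in each library, and the median embryonic-globin-rich cell held 0. Fech stood at 0.0572 and 0.0656 of the adult-globin level. Urod had 1 and 0 UMIs against 315 and 284, Alad 1 and 0 against 132 and 158, and Cpox 2 and 1 against 55 and 113. The median log2 ratio over the 7 list genes measured was −4.01 (control) and −3.01 (mutant), against −0.34 and −0.03 over all genes.

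The other lists held genes that were lower and genes that were not. Slc25a37 had 2 UMIs in each library's embryonic-globin-rich cells against 2277 and 1596 in the adult-globin cells. Nearly every UMI of this gene was in adult-globin cells. Gpx1 stood at 0.0415 (0.0320 to 0.0528) and 0.0537 (0.0393 to 0.0717) of the adult-globin level, Bpgm at 0.0560 and 0.137, and Car2 at 0.103 and 0.256. Bcl2l1, a survival gene of late erythroblasts, had 2 UMIs in each library's embryonic-globin-rich cells against 332 and 337. Pim1, a survival kinase, was higher, at 3.29-fold and 2.85-fold, so the 2 testable genes of the erythropoietin signalling and survival list went opposite ways. Of 8 glycolysis and gas transport genes 2 were lower and none higher, a share close to that of all genes. Of 7 globin chaperone and antioxidant genes 3 were lower and 1, Prdx1, was higher.

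Membrane and clearance genes showed the same direction. Of 10 membrane and skeleton genes, 8 were lower and none higher (7 lower and 1 higher of 11 over all barcodes), with Slc4a1 at 0.181 (0.101 to 0.302) and 0.0667 (0.0137 to 0.196) of the adult-globin level. Of 11 clearance genes, 8 were lower and 1 was higher (7 lower and none higher of 11 over all barcodes). Of all genes, 25.9% were lower and 11.3% higher in this comparison, and 8.21% and 3.48% over all barcodes. Trim10 had 1 UMI in each library against 449 and 346. Mkrn1, which encodes a ubiquitin ligase, was at 0.0271 and 0.0175, and Ube2c at 0.0251 and 0.0407. The 10 genes furthest down included Slc25a37, March2, Mkrn1, Fam220a, Trim10, Rnf11, Ube2c and 1700020I14Rik.

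**Figure D3:**
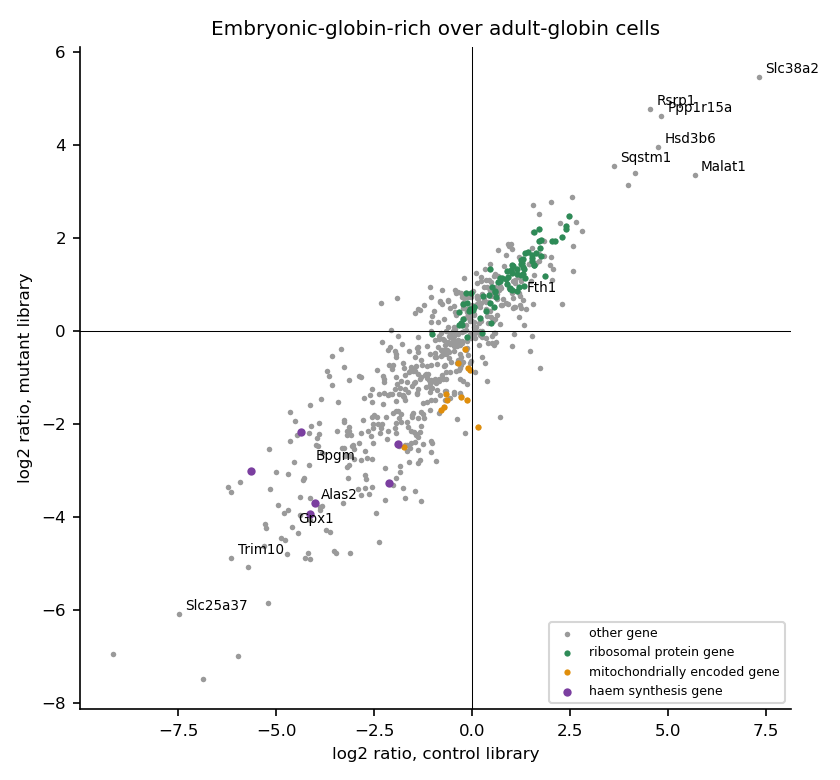
Log2 ratio of embryonic-globin-rich over adult-globin cells in the control library (x axis) and in the mutant library (y axis), each point a gene with 50 or more UMIs in both libraries among the cells without other-type markers. Ribosomal protein, mitochondrially encoded and haem synthesis genes are coloured. Of the 672 genes, 76 were over 2-fold higher and 174 over 2-fold lower in both libraries, and Slc25a37, Trim10 and Alas2 lie at the lower left and Slc38a2, Ppp1r15a and Malat1 at the upper right.

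Malat1 was higher in the embryonic-globin-rich cells. It was the only 1 of 7 nuclear RNA genes with enough UMIs to compare in both libraries without other-type markers. Malat1, a long RNA held in the nucleus, had 2302 UMIs in the 62 control embryonic-globin-rich cells and 284 in the 512 adult-globin cells, 51.4-fold (45.4 to 58.3) higher per UMI outside the globins. In the mutant library it had 592 UMIs in 24 cells and 676 in 445 cells, 10.3-fold (9.19 to 11.5) higher, and 281 of the 676 UMIs were in 1 cell. A Malat1 UMI was seen in 57 of 62 and 22 of 24 embryonic-globin-rich cells, against 162 of 512 and 173 of 445 adult-globin cells. At least 5 UMIs were seen in 55 and 16 against 8 and 6 cells. The median per 10000 UMIs outside the globins was 237 and 107 in embryonic-globin-rich cells, 0 in adult-globin cells of both libraries, and 86.3 and 97.9 in other cells with under 1% globin UMIs. With the cells that held other-type markers included, the folds were 4.99 and 2.08. Over all barcodes 4 of the 7 nuclear RNA genes could be compared, with Malat1 higher and Meg3 lower, at 0.107 and 0.140, and the median log2 ratio of the list was −0.11 and −1.35.

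The Malat1 and Alas2 differences were also seen at equal depth outside the globins. When each cell without other-type markers was thinned to 200 UMIs outside the globins, a Malat1 UMI was left in 83.9% and 79.2% of the embryonic-globin-rich cells, 10.2% and 15.53% of the adult-globin cells, and 71.3% and 70.5% of the other cells. For Alas2 the shares were 11.29% and 8.33%, 74.6% and 82.2%, and 0% and 0.167%. Whether free RNA gave the low Malat1 share of adult-globin cells was not tested. Neat1, another nuclear RNA, had 54 UMIs in control embryonic-globin-rich cells against 1 in adult-globin cells, and 17 against 8 in the mutant library.

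**Figure D4:**
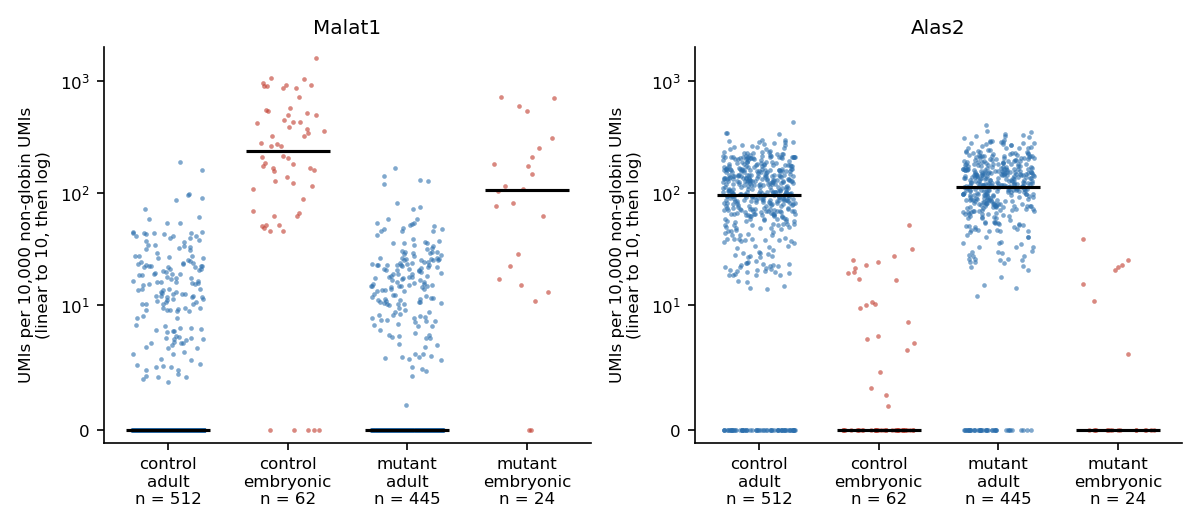
Malat1 and Alas2 UMIs per 10000 UMIs outside the 7 globins, 1 point per cell, for adult-globin cells (512 control, 445 mutant) and embryonic-globin-rich cells (62 control, 24 mutant) without other-type markers. The line is the median. The Malat1 median is 237 and 107 in embryonic-globin-rich cells and 0 in adult-globin cells, and the Alas2 median is 95.6 and 112 in adult-globin cells and 0 in embryonic-globin-rich cells.

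The 10 genes furthest up in the embryonic-globin-rich cells were Slc38a2, Ppp1r15a, Rsrp1, Hsd3b6, Sqstm1, Bax, Malat1, Srsf2, Atp6v0b and Rpl22. Slc38a2, an amino acid carrier, had 176 and 45 UMIs against 7 and 12 in the adult-globin cells and was 159-fold (75.8 to 402) and 44.0-fold (22.9 to 91.4) higher. Ppp1r15a, which ends the translation block of the integrated stress response, was 28.4-fold (19.9 to 41.5) and 24.7-fold (15.52 to 40.3) higher. Atf4, a transcription factor of that response, was 22.0-fold and 11.7-fold higher, Sqstm1, an autophagy receptor, 12.3-fold and 11.7-fold, and Bax, a cell death effector, 17.7-fold and 10.5-fold. Hmox1, which breaks down haem, had 79 and 30 UMIs against 3 and 1. Junb, an immediate early gene that can rise during dissociation, had 113 and 23 UMIs against 1 and 0. Hmox1 and Junb were under 50 UMIs in the mutant library and are not among the 76 genes. None of the 9 dissociation genes listed could be compared in both libraries without other-type markers, and the part of dissociation in these values was not tested.

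Ribosomal protein genes made up more of the RNA in embryonic-globin-rich cells. They held 24.2% and 31.3% of the UMIs outside the globins, against 14.4% and 15.1% in adult-globin cells, and 35 of the 79 compared were over 2-fold higher in both libraries, with none lower. Over all erythroid barcodes 13 of 81 were higher and none lower. Of all genes, 11.3% were higher and 25.9% lower without other-type markers, and 3.48% and 8.21% over all barcodes. Mitochondrially encoded genes held 4.18% and 2.35% against 6.79% and 6.60%, and of 12 compared, mt-Co1 alone was over 2-fold lower in both libraries, at 0.300 and 0.178. Ferritin did not follow the haem genes. Fth1 was 2.34-fold (2.27 to 2.40) and 1.67-fold (1.59 to 1.76) higher and Ftl1 1.04-fold and 1.14-fold.

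Between genotypes the erythroid cells differed in few genes. Of 3575 genes with 50 or more UMIs over both libraries, 92 (2.57%) were over 2-fold higher in the mutant erythroid cells and 26 (0.727%) were over 2-fold lower, with intervals that left out 1. Of these, 44 higher and 16 lower genes had no more than 50% of either library's UMIs in 5 cells. The median gene was 0.17 higher on the log2 scale, and changes are to be read relative to it. Scaled to all UMIs the counts were 158 higher and 13 lower, and scaled by the median of ratios they were 61 and 40. With cells of at least 40% globin UMIs taken in they were 86 and 75, and with at least 80% required they were 12 and 15. Among the cells without other-type markers, 45 of 1230 genes (3.66%) were higher and 8 (0.65%) were lower, of which 21 and 6 were not held by 5 cells. Of the 92 higher genes 17 had 50 UMIs in these cells, and 13 were among the 45. Of the 26 lower genes 13 had 50 UMIs, and 7 were among the 8.

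**Figure D5:**
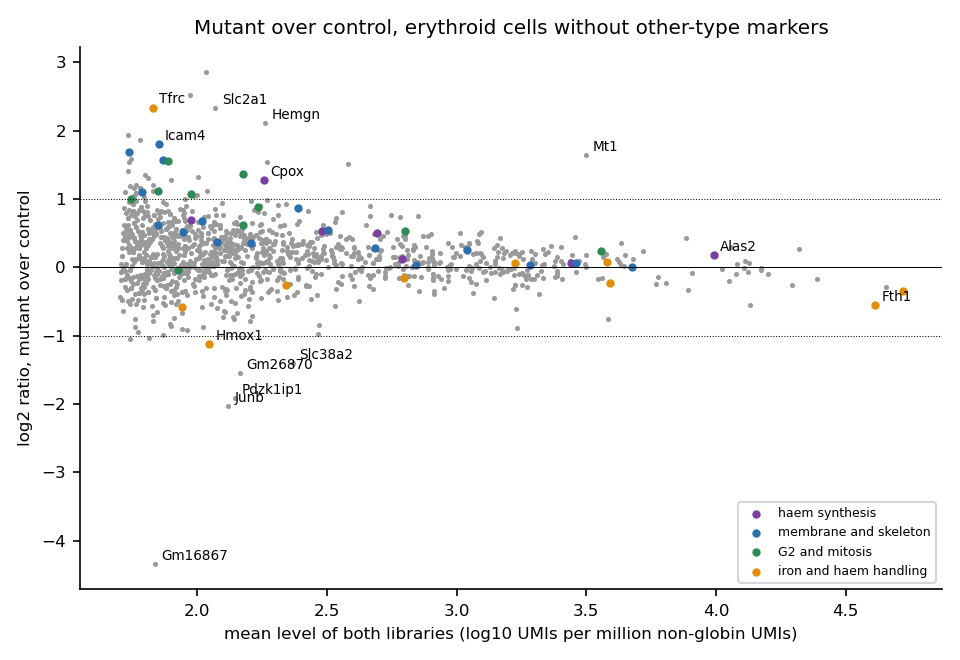
Log2 ratio of mutant over control erythroid cells without other-type markers (y axis) against the mean level in UMIs per 1000000 outside the 7 globins (x axis, log10), each point a gene with 50 or more UMIs, coloured by list where it is in the haem synthesis, membrane, G2 and mitosis or iron list. Dotted lines mark a 2-fold difference. Of 1230 genes, 45 were over 2-fold higher and 8 over 2-fold lower in the mutant library.

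In the cells without other-type markers, Mt1 had the highest ratio of the genes with at most 50% of either library's UMIs in 5 cells. Mt1, which binds zinc and copper, had 827 control and 2128 mutant UMIs in the cells without other-type markers and was 3.12-fold (2.88 to 3.38) higher. The 5 richest cells held 46.4% of the mutant Mt1 UMIs and 16.8% of the control ones. In the other cells of the eye cup the ratio was 1.24. Mt2, another metallothionein gene, singled out after its value was seen, had 107 and 251 UMIs, and 5 cells held 61.0% of the mutant ones.

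The remaining higher genes were counted thinly. Among the cells without other-type markers, and leaving out genes with over 50% of their UMIs in 5 cells, the rule named Mrpl33, Add1, Hes6, Ackr1, Six3, Atp6v1d, Col5a1, Dapk2 and Uchl1 after Mt1. Add1, which encodes the skeleton protein adducin, had 20 and 49 UMIs and was 2.97-fold (1.73 to 5.28) higher, and Ackr1, the Duffy chemokine receptor of red cells, had 22 and 42 and was 2.31-fold (1.35 to 4.07) higher. Hes6, Six3 and Uchl1 are genes of retinal progenitors or neurons, and Hes6 had 31 and 64 UMIs in these cells against 36427 and 51563 in the other cells. Over all erythroid barcodes the rule named Gm47283, Mt1, Cacna2d1, Tmcc1, Fam208a, Klhl24, Trp53i11, Gpm6a, Miat and Pnrc2. A total of 6 of these, Cacna2d1, Tmcc1, Fam208a, Klhl24, Trp53i11 and Gpm6a, had 6 or fewer UMIs in either library once cells with other-type markers were left out.

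Among the lower genes, Gm16867 was not seen in the mutant. It had 93 UMIs in the control erythroid cells and 0 in the mutant ones, and with 0 set at a floor of 3 UMIs its mutant level was at most 0.0326 of the control level. In the other cells it had 0.0221 of the control level, so the difference was not particular to erythroid cells. Gm26870 had 131 and 39 UMIs, at 0.301 (0.205 to 0.433), against 0.753 in the other cells. Pdzk1ip1, a small membrane protein gene next to Tal1, had 134 and 29 UMIs, at 0.219 (0.141 to 0.328). Rest, Serpine2, Crabp1, Aldh7a1, Trim27, Qtrt1 and Vps26a were the other lower genes named over all erythroid barcodes, at 0.382 to 0.464. Of these, Rest had 5 and 2 UMIs and Serpine2 4 and 0 in the cells without other-type markers. There Slc38a2, Maged1 and Necap2 were named, at 0.378, 0.485 and 0.490.

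Several of the lower genes were genes of the embryonic-globin-rich cells, of which the cells without other-type markers held 62 in the control library and 24 in the mutant library. Pdzk1ip1 had 109 of its 119 control UMIs and 20 of its 26 mutant UMIs in them, Slc38a2 176 of 183 and 45 of 57, Junb 113 of 114 and 23 of 23, and Hmox1 79 of 82 and 30 of 31. Within these cells Hmox1 was at 0.799 (0.506 to 1.23) of the control level, Pdzk1ip1 at 0.386, Slc38a2 at 0.538 and Junb at 0.428. Within the adult-globin cells Pdzk1ip1 had 10 and 6 UMIs and Slc38a2 7 and 12. Gm26870 was at 0.330 also in the adult-globin cells. Fth1 was within 2-fold in both kinds, at 0.765 in adult-globin and 0.547 in embryonic-globin-rich cells and at 0.948 in the other cells of the eye cup.

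Several of the genes with large folds above were within 2-fold between genotypes. In the cells without other-type markers Alas2 was at 1.13 (1.09 to 1.18) of the control level, Slc4a1 at 1.19 (1.06 to 1.35), Gpx1 at 1.20 (1.17 to 1.24) and Bpgm at 1.06 (1.03 to 1.10). In haem synthesis 1 of 7 genes, Cpox, was past 2-fold, with 57 and 114 UMIs (2.42-fold, 1.75 to 3.39), and 69.3% of the mutant UMIs were in 5 cells. The list's median log2 ratio over 8 genes measured was 0.37 over all erythroid barcodes and 0.52 without other-type markers, against 0.17 and 0.18 over all genes. Without the 5 cells of each library with most UMIs outside the globins it was 0.18 over all erythroid barcodes, against 0.21 over all genes. Of 17 membrane genes, 4 (Stom, Add1, Icam4 and Rhag) were higher and none lower, where 3.66% of all genes were higher and 0.65% lower. Of 10 iron genes Tfrc was higher and Hmox1 lower. With all erythroid barcodes taken, 1 of 7 haem genes (Cpox), 3 of 19 membrane genes (Ermap, Icam4 and Rhag) and 2 of 13 iron genes (Abcb10 and Tfrc) were higher, and 1 iron gene (Hmox1) was lower. Without other-type markers, none of 7 transcription factors, 12 clearance genes, 12 mitochondrially encoded genes and 80 ribosomal protein genes was past 2-fold in either direction. Over all barcodes none of 8, 13, 13 and 81 was.

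Some G2 and mitosis genes were higher in the mutant cells without other-type markers, and few cells carried them. Of 10 G2 and mitosis genes, 5 were over 2-fold higher in the cells without other-type markers, namely Cenpf, Tpx2, Mki67, Cdk1 and Top2a, where 3.66% of all genes were higher. The summed UMIs of the list were 1.32-fold (1.248 to 1.395) higher in these cells and 1.188-fold (1.183 to 1.192) higher in the other cells of the eye cup. Marker sums in these cells went both ways, with mesenchyme at 1.38 and pigment epithelium and melanocytes at 0.375. Of 3 S-phase genes, 1, Tyms, was higher. Mki67, a proliferation marker, had 45 and 96 UMIs, and 5 cells held 67.7% of the mutant ones. Tfrc, the transferrin receptor that brings iron into erythroblasts, had 12 and 50 UMIs with 88.0% in 5 cells, and Hemgn, a nuclear protein of erythroblasts singled out after its value was seen, 37 and 132 with 74.2% in 5 cells. Over all erythroid barcodes none of 14 G2 and mitosis genes and none of 13 S-phase genes was past 2-fold.

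The cells in this paragraph are those without other-type markers. The mutant cell with the most UMIs outside the globins held 16743 of them and 2849 genes at a globin share of 64.2%. It carried 51 Hemgn, 17 Tfrc and 281 Malat1 UMIs, 233 UMIs of the S-phase and G2 lists together and 4 UMIs of other-type markers. Another mutant cell held 6718 UMIs outside the globins, with 29 Hemgn, 11 Tfrc and 93 cell-cycle UMIs. The control adult-globin cell with the most held 3890 (16735 with all control adult-globin barcodes taken), with 1 Hemgn, 1 Tfrc and 46 cell-cycle UMIs. Cells with 5 or more Tfrc UMIs numbered 0 in the control and 3 in the mutant, and cells with 5 or more Hemgn UMIs 0 and 5. With all erythroid barcodes taken, these were 0 and 5 for Tfrc and 0 and 7 for Hemgn, and cells with 5 or more Mki67 UMIs were 10 and 7. Cells with 20 or more cell-cycle UMIs were 2 in the control and 3 in the mutant, and they held 10.2% and 42.4% of the cell-cycle UMIs.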

How the data were processed

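The deposited files were 10x matrices of UMI counts per gene and barcode, 1 per library, made by the authors with Cell Ranger 7.1.0 and analysed with Seurat 4.1.1 on mm10 per the labels (the matrix header names software version 3.1.0). The counts were used as deposited. The study's own filter removed cells over 2000 UMIs, where the rule used here starts, so it was not applied. Cells with 100 genes and 2000 UMIs were kept, doublets were called with Scrublet in scanpy 1.11.5 but not removed, and levels were summed UMIs per 1000000 UMIs outside the 7 globins. Ratios carry exact conditional binomial intervals and shares exact Clopper-Pearson intervals (scipy 1.17.1), at 95%, for counting error only. A gene was past 2-fold with 50 or more UMIs, summed over the 2 sets of cells compared, and an interval that left out 1. A count of 0 was set at 3. Named genes were those of the lists, the 10 furthest each way past 2-fold between genotypes with at most 50% of a library's UMIs in 5 cells, the 10 furthest each way between the kinds of erythroid cell and the 15 furthest above other cells (by the smaller ratio of the libraries), and the 10 with most UMIs. Lists used 20 UMIs for medians. Members and lists were chosen with earlier results of these data known. Hemgn, Mt2 and the single cells described were singled out after their values were seen. Some genes are not reported here. The ratios were checked on simulated counts drawn independently per gene, with no clustering in cells. The check therefore does not cover genes whose UMIs lie in few cells. Alternatives covered limits on cells and globin share, count minimum, scaling and other-type markers.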

Additional observations from a re-analysis of the deposited data

Results flagged for a closer look

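Barcodes with at least 50% globin UMIs also lay under the minimum of genes and UMIs and entered no comparison. There were 79 in the control library and 41 in the mutant library, with a median of 1197 and 1159 UMIs and of 125 and 134 genes. Of these, 71 and 38 had under 2000 UMIs and 23 and 11 had under 100 genes.

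A Y-linked UMI was found in 43 of 554 mutant erythroid cells (7.76%) and in 1 of 631 control ones (0.158%). In the other cells the shares were 51.1% in the mutant library and 0.0311% in the control library. Xist, expressed from the inactive X chromosome of female cells, had a UMI in 64 control erythroid cells (10.1%) and 32 mutant ones (5.78%), against 88.0% and 33.7% of the other cells. The libraries differed in these sex-linked RNAs, so the sex of the pooled embryos and the genotype cannot be told apart.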

How the results depend on the processing

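The share of erythroid cells kept its direction under all 10 alternatives, with ratios of mutant to control from 0.751 to 0.864. The number of genes past 2-fold between genotypes was 118 and moved with the cells and counts taken. It was 27 at a globin share of at least 80% (12 higher, 15 lower), 53 without cells with other-type markers, 403 at 20 UMIs per gene and 16 at 200 UMIs per gene. Without the embryonic-globin-rich cells as well, an alternative added after the data were seen, it was 43. The haem synthesis median log2 ratio was 0.37 and turned to −0.068 at a globin share of at least 80%, where the median of all genes was 0.07. Without the 5 cells of each library with most UMIs outside the globins it was 0.18, against 0.21 over all genes. The causes were not tested. The embryonic-globin-rich share had a ratio of 0.419, and a limit of 50% on Hba-x among alpha-like chains gave 0.792% in the control, 0% in the mutant and a ratio of 0. That ratio rested on 5 control and 0 mutant cells, and its interval, 0 to 1.243, includes 1. The median number of genes per cell was higher in the mutant by 15, and by 2 to 25.5 under 12 alternatives. The other alternatives kept these results in direction and within 1.5 times the count or the counting interval. Leaving out cells over 2000 UMIs, as in the methods of the study, could give no value, since the rule starts at 2000 UMIs. No paired analysis was possible because each genotype had 1 library. Depth limits genes with few UMIs outside the globins, as the median erythroid cell held 855 and 852.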
